A study of Mus musculus with 37 samples.

Results

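The kinesin motor genes of the mouse with a Kif symbol were described in single oocytes at 3 steps of meiotic maturation. Members were all protein-coding genes of the deposited gene table whose symbol starts with Kif followed by a digit or by the letter c, which gave 43 of 21921 protein-coding genes and of 54752 annotated features. Kif1bp fits this symbol rule but encodes a kinesin-binding protein without a motor domain, so it was placed with the kinesin partners, and 42 motors were left. By known function these were 15 spindle motors, which act in mitotic or meiotic division, 15 transport motors, which carry cargo along microtubules, and 12 others with roles in cilia, signalling or elsewhere.

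Kinesins are ATPases that walk along microtubules or take them apart at their ends. Spindle motors slide antiparallel microtubules, move chromosomes, shorten microtubules at kinetochores and build the midzone at which a cell divides, whereas transport motors move vesicles, organelles and messenger RNAs. A mouse oocyte has no centrioles and builds its spindle from many microtubule organizing centres, so motors that sort and focus microtubules have been of interest in these cells. The fully grown oocyte ceases transcription before it resumes meiosis, and it divides with the messenger RNAs and proteins it has stored.

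RNA of 37 single oocytes from C57BL/6 mice of 6 to 8 weeks had been sequenced after Smart-seq2 amplification, in batches named A and B. Batch A held 6 oocytes at the germinal vesicle (GV) stage, arrested in prophase of meiosis I, and 6 at metaphase II (MII), and batch B held 10 GV oocytes and 15 at metaphase I (MI). GV oocytes came from ovaries 48 h after injection of PMSG (pregnant mare serum gonadotropin), MII oocytes from the oviduct 15 h after injection of hCG (human chorionic gonadotropin), and MI oocytes were GV oocytes cultured for 8 h in M16 medium. MI oocytes had thus matured in culture and MII oocytes in the animal, and MI and MII were never sequenced in the same batch, so stage, place of maturation and batch cannot be told apart between them. The labels do not say which animal an oocyte came from, and p-values measure only the spread between oocytes, some of which may have shared an animal. Smart-seq2 primes at the poly(A) tail, so less RNA and a shorter tail cannot be told apart.

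Expected counts assigned to genes numbered 7509875 to 12648629 (median 10014033) in GV and 9930485 to 13988444 (median 10509159) in MII oocytes of batch A, and 7184205 to 17724506 (median 11548242) in GV and 2709279.8 to 19390128 (median 12840734) in MI oocytes of batch B. Of these, the 42 motors held 13975 to 23467 (median 19814), 16449 to 22102 (median 18516), 12733 to 49931 (median 26633) and 6656 to 59587 (median 27126), in the same order. Libraries that stood apart were MII oocyte 1 of batch A, with 29518 genes detected against a median of 20264 in its group, and MI oocyte 15 of batch B, with 2709279.8 counts in all. Calls of motors that change without either are also given without it. In MI oocyte 15 the summed level of the motors and the share of spindle motors were the highest of all MI oocytes. So were, among others, the levels of Kif23, Kif22, Kif20b, Kif4, Kif2a, Kif20a, Kif16b and Kifc3, while that of Kif17 was the lowest. HTSeq totals of MI oocytes 4, 8 and 9 were 0.648, 0.634 and 0.529 of their expected counts, below the 0.877 of the next oocyte, and fits on HTSeq counts were also run without these 3.

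The identity of the cells was read from marker lists. All 10 oocyte markers were detected in at least 19 of the 37 oocytes. Their summed level, in TPM (counts per transcript length, scaled to the same sum over protein-coding genes in each oocyte), was 22979 to 34508 TPM (median 26114) and 14778 to 18276 TPM (median 16216) at GV and MII of batch A, and 8621 to 16258 TPM (median 11977) and 8368 to 13847 TPM (median 10392) at GV and MI of batch B. The growth factor gene Gdf9 was the highest on average over all 37 oocytes. At GV of batch A, Zp3 had a higher median (5892 TPM) than Gdf9 (5254 TPM). Of 14 cumulus and granulosa markers, 6 were detected in at least 19 oocytes. Their summed level was 30.7 to 50.2 TPM (median 39.6), 25.1 to 42.7 TPM (median 33.9), 33.3 to 108 TPM (median 50.6) and 24.7 to 57.3 TPM (median 39.6) in the same order, most of it from Cyp19a1, and the medians of Fshr, Amh, Inha, Foxl2, Ptx3, Hsd17b1, Nr5a1 and Fst over all oocytes were 0. Of the 14, those tested in batch B were Cyp19a1, Gja1, Ccnd2, Has2 and Kitl. Gja1 and Ccnd2 were called lower at MI, where 0.121% of all genes were called. Their values were a log2 change of -3.42 with a standard error of 0.618 (adjusted p = 0.0174) and a log2 change of -3.69 with a standard error of 0.684 (adjusted p = 0.0174). The log2 changes of Cyp19a1 (-0.22), Has2 (1.21) and Kitl (0.04) did not pass the adjusted p (0.742, 0.67 and 0.988). On HTSeq counts and with the replicate number as a block, no gene of batch B was called, Gja1 and Ccnd2 included. The 7 blood and immune markers, led by the beta globin gene Hbb-bs, summed to 0 to 2.52 TPM (median 0.634), 0.962 to 84.0 TPM (median 1.37), 11.7 to 59.7 TPM (median 32.9) and 6.38 to 46.4 TPM (median 18.3). Among the 3 genes listed for dividing somatic cells, Top2a was present at 35.2 to 85.8 TPM (median 62.2) in GV oocytes of batch A and 122 to 198 TPM (median 157) in those of batch B, and oocytes may express it themselves. In the same groups Mki67 had medians of 26.4 and 50.1 TPM, and Pclaf of 0.295 and 0.162 TPM. What part these markers have in the levels of the kinesins was not tested.

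As levels, the motors spanned from 0 to over 1000 TPM, the latter in MI oocyte 15 alone. In GV oocytes of batch A, 6 motors had a median of at least 100 TPM, 14 lay from 10 to 100, 10 from 1 to 10, and 12 below 1, of which 8 had a median of 0. The 6 at the top were the spindle motors Kif23, Kif22, Kif2c, Kif20b and Kif4 and the transport motor Kif17. In GV oocytes of batch B the same bands held 11, 10, 9 and 12 motors, in MII oocytes 7, 12, 11 and 12, and in MI oocytes 9, 12, 7 and 14. Kif23 had the highest median in every group, above 98.8% of all protein-coding genes in GV oocytes of batch A and above 99.2% in those of batch B.

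Summed over the 42 motors, the level was 1761 to 2337 TPM (median 2053) in GV and 1963 to 2485 TPM (median 2246) in MII oocytes of batch A. In batch B it was 2433 to 3607 TPM (median 3119) in GV and 2657 to 4842 TPM (median 3211) in MI oocytes. Stages overlapped within each batch, while the sums of the GV oocytes of batch A all lay below those of batch B. This gap and the order of the stages in batch A depended on the scale. Scaled over all genes in place of protein-coding ones, the sums had medians of 1163 TPM at GV and 1065 TPM at MII of batch A, and 1259 TPM at GV and 1396 TPM at MI of batch B. On that scale the GV oocytes of the batches overlapped, and the median of batch A was lower at MII than at GV, the reverse of the order over protein-coding genes. Spindle motors made up 73.9 to 78.8% (median 76.8) of the summed level in GV and 79.0 to 81.5% (median 80.6) in MII oocytes of batch A, without overlap, and 79.0 to 82.5% (median 80.7) in GV and 74.7 to 85.5% (median 80.6) in MI oocytes of batch B, where the ranges overlapped. The spindle share of the GV oocytes of batch B was as high as that of the MII oocytes of batch A, so the shift between stages was no larger than the one between batches at the same stage. In batch A, Kif23 alone held 22.1 to 27.7% (median 26.2) of the summed level in GV and 32.2 to 38.4% (median 35.0) in MII oocytes. In batch B it held 18.2 to 30.1% in GV and 17.1 to 25.4% in MI oocytes, with overlap. The other 14 spindle motors together held 49.6 to 51.8% (median 50.5) at GV and 43.1 to 48.5% (median 44.7) at MII of batch A, without overlap. The higher share of spindle motors at MII thus lay in Kif23. The sum includes Kif23, so its higher share lowers that of the others, which does not show a fall in their own levels. Of the 14 spindle motors tested in batch A, Kif23 among them, 10 had positive log2 fold changes and 4 negative ones.

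**Figure D1:**
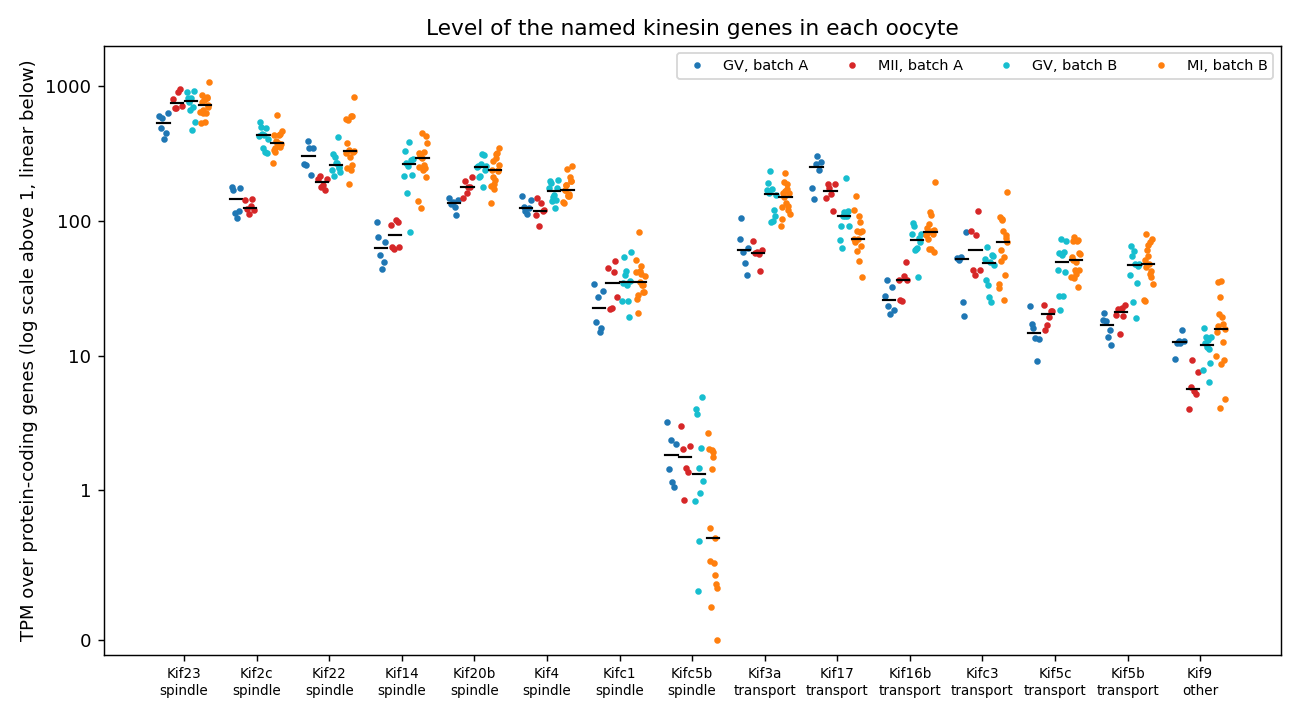
Level of the 15 named motors in each oocyte, in TPM over protein-coding genes on an axis that is logarithmic above 1 and linear below, with a line at each group median. Kif23 has the highest median in all 4 groups, and Kif23, Kif22 and Kif9 are those whose GV and MII oocytes of batch A do not overlap.

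Oocytes of a group varied more in some motors than in others. Among motors with a median of at least 10 TPM, the coefficient of variation of the level was at the median 23.6% over 20 motors in GV and 16.4% over 19 in MII oocytes of batch A, and 29.1% and 37.5% over 21 motors each in GV and MI oocytes of batch B. Over all protein-coding genes at this level it was 24.8%, 21.9%, 32.5% and 36.3%. The steadiest motor was Kif20b at GV of batch A (10.4%), Kif11 at MII (5.70%), Kif4 at GV of batch B (15.8%) and Kif23 at MI (19.1%), all of them spindle motors. The most variable ones were Kifc3 in both stages of batch A, Kif24 at GV of batch B and Kif9 at MI.

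To ask which motors changed from GV to MII, counts of batch A were compared with edgeR's quasi-likelihood test, with p-values adjusted over all 12929 genes tested by the method of Benjamini and Hochberg. Calls needed more than a 2-fold difference together with an adjusted p below 0.05. Of the 42 motors, 30 passed the filter on low counts and 12 did not. Among the 30, 1 motor was called lower at MII, Kif9, and 0 were called higher, against 6.32% of all genes called lower and 2.15% called higher. By adjusted p alone, Kif22 and Kif9 were lower (11.5% of all genes) and Kif23 was higher (9.06%). Of the 30, 8 were higher at an unadjusted p under 0.05 and 3 lower, beside 4441 of all 12929 genes in either direction. With DESeq2 0 motors were called in either direction, beside 273 of all genes called higher and 828 lower. By its adjusted p alone 3 motors were higher (Kif23, Kif1b and Kifc1) and 2 lower (Kif22 and Kif9). The share of all genes by that measure was not computed. With edgeR, the shares of called motors were thus below or near those of all genes.

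By role, the log2 fold changes of the 14 spindle motors tested had a median of 0.25 (-0.65 to 0.60), those of the 11 transport motors a median of 0.22 (-0.54 to 0.43), and those of the 5 others a median of 0.03 (-1.01 to 0.31), beside 0.01 over all genes tested. The values were positive for 10 spindle, 7 transport and 3 other motors. The medians of spindle and transport motors were close, and their ranges overlapped. All of these are changes relative to the other RNA of the oocyte. When ERCC spike-ins set the scale in place of the TMM normalization, the median of all genes moved from 0.01 to -0.72 and all 30 motors had negative values, of which 18 still lay above that median and 12 below it. Of all genes called, 25.4% were higher with TMM, 3.34% with spike-ins and 13.0% on HTSeq counts. With spike-ins 3788 of the 12929 genes were called lower and 131 higher, and 4 of the 30 motors were called, all lower. Batch B held at most 32 spike-in counts in an oocyte, so this scale could not be used there. Directions below are therefore relative to the median gene.

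Kif23 (ENSMUSG00000032254.10, chromosome 9, 61915905 to 61946774, minus strand) encodes the kinesin of the centralspindlin complex, which bundles midzone microtubules at anaphase and anchors the contractile ring. It had 405 to 639 TPM (median 538) in GV and 689.7 to 955 TPM (median 758) in MII oocytes of batch A. All 6 MII oocytes lay above all 6 GV oocytes. It rose, with a log2 change of 0.58 with a standard error of 0.122 (adjusted p = 0.00387), which stayed under the fold threshold. With spike-in scaling the value was -0.17, which lies 0.55 above the median of all genes, so its RNA rose relative to other transcripts but not per spike-in. In batch B it had 475 to 928 TPM (median 774) in GV and 534 to 1088 TPM (median 734) in MI oocytes, with overlap and a log2 change of 0.07 with a standard error of 0.131 (adjusted p = 0.904). Racgap1, the gene of its partner in centralspindlin, rose at MII as well, with 49.8 to 89.0 TPM (median 72.1) at GV and 89.7 to 119.7 TPM (median 107) at MII and a log2 change of 0.59 with a standard error of 0.155 (adjusted p = 0.0144).

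Kif22 (ENSMUSG00000030677.8, chromosome 7, 127027729 to 127042471, minus strand) encodes a chromokinesin that binds chromosome arms and pushes them towards the spindle equator. In batch A it had 221 to 395 TPM (median 307) in GV and 171 to 217 TPM (median 196) in MII oocytes, with all MII oocytes below all GV oocytes. The change was a log2 change of -0.65 with a standard error of 0.159 (adjusted p = 0.00923), again under the fold threshold. In the model of all 37 oocytes it did not pass the adjusted p (-0.60, adjusted p = 0.206). In batch B it had 217 to 425 TPM (median 259.8) at GV and 188 to 837 TPM (median 329) at MI, where the ranges overlapped and the value was of the other sign, with a log2 change of 0.55 with a standard error of 0.222 (adjusted p = 0.326). The highest MI oocyte was number 15, the one of lowest depth, followed by MI oocytes 9, 12, 1 and 5. An antisense gene, Gm31749, overlaps Kif22 over 3824 bases, and with counting that does not use strand its reads could not be told from those of Kif22.

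Kif9 (ENSMUSG00000032489.17, chromosome 9, 110476958 to 110525179, plus strand) encodes a kinesin of motile cilia and flagella. It was a minor motor by level, with 9.37 to 15.5 TPM (median 12.7) in GV and 4.02 to 9.36 TPM (median 5.65) in MII oocytes of batch A, all MII oocytes lying below all GV oocytes, the closest by a small margin. It fell, with a log2 change of -1.01 with a standard error of 0.257 (adjusted p = 0.012), just past the fold threshold. Without MII oocyte 1, its lowest MII oocyte, the log2 fold change was -0.90 (adjusted p = 0.0247), and on HTSeq counts -0.82 (adjusted p = 0.0326), both under the fold threshold but past the adjusted p. In the model of all 37 oocytes the adjusted p was lost too (-0.94, adjusted p = 0.118). Its range in batch B was 6.42 to 16.0 TPM (median 12.0) at GV and 4.05 to 35.9 TPM (median 15.8) at MI, with overlap and a log2 change of 0.56 with a standard error of 0.292 (adjusted p = 0.491).

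These 3 were also the motors without overlap between GV and MII in batch A, 3 of the 30 tested, and 10.2% of all protein-coding genes tested showed no overlap.

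To ask which motors changed from GV to MI, the same test was run in batch B over 12419 genes. Of 31 motors tested, 0 were called, with 3 at an unadjusted p under 0.05, and DESeq2 called 0, with 4 at an unadjusted p under 0.05. Of all genes 15, or 0.121%, were called, and 1371 of 12419 had an unadjusted p under 0.05 with edgeR. The log2 fold changes had a median of 0.07 over 14 spindle motors (-0.91 to 0.55), 0.11 over 11 transport motors (-0.40 to 0.54) and 0.20 over 6 others (-0.76 to 0.99), beside 0.02 over all genes. Without MI oocyte 15 the log2 change of Kif16b went from 0.32 to 0.18, that of Kif14 from 0.18 to 0.12 and that of Kif4 from 0.16 to 0.0908. Values near 0 moved as well, that of Kif23 from 0.0695 to 0.00226, that of Kif20b from -0.0272 to -0.0933 and that of Kif3a from -0.0879 to -0.0556. Stages overlapped for all 31 motors, and 0% of the protein-coding genes tested were without overlap.

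Whether the change to MII differed from the change to MI was tested as a difference of the log2 fold changes of both batches, in a model of all 37 oocytes with 15083 genes. Of 32 motors tested, Kif22 and Kif9 were called, against 4.03% of all genes. The differences had a median of 0.38 over 14 spindle motors (-1.13 to 0.89), 0.02 over 12 transport motors (-0.99 to 0.60) and -0.26 over 6 others (-1.49 to 1.15), beside 0.04 over all genes. The difference was -1.13 for Kif22 (standard error 0.345, adjusted p = 0.0425) and -1.49 for Kif9 (standard error 0.461, adjusted p = 0.0467), both from a lower value at MII and a higher one at MI. Neither was called without MII oocyte 1 (-1.09 and -1.35, adjusted p = 0.0794 and 0.107) or on HTSeq counts (-1.22 and -1.39, adjusted p = 0.0522 and 0.147). Without MI oocyte 15 the difference for Kif22 was -0.97, under the fold threshold. Kif23, which passed the adjusted p in batch A but not in batch B, was not shown to differ between the changes, with a difference of 0.58 (standard error 0.206, adjusted p = 0.095).

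**Figure D2:**
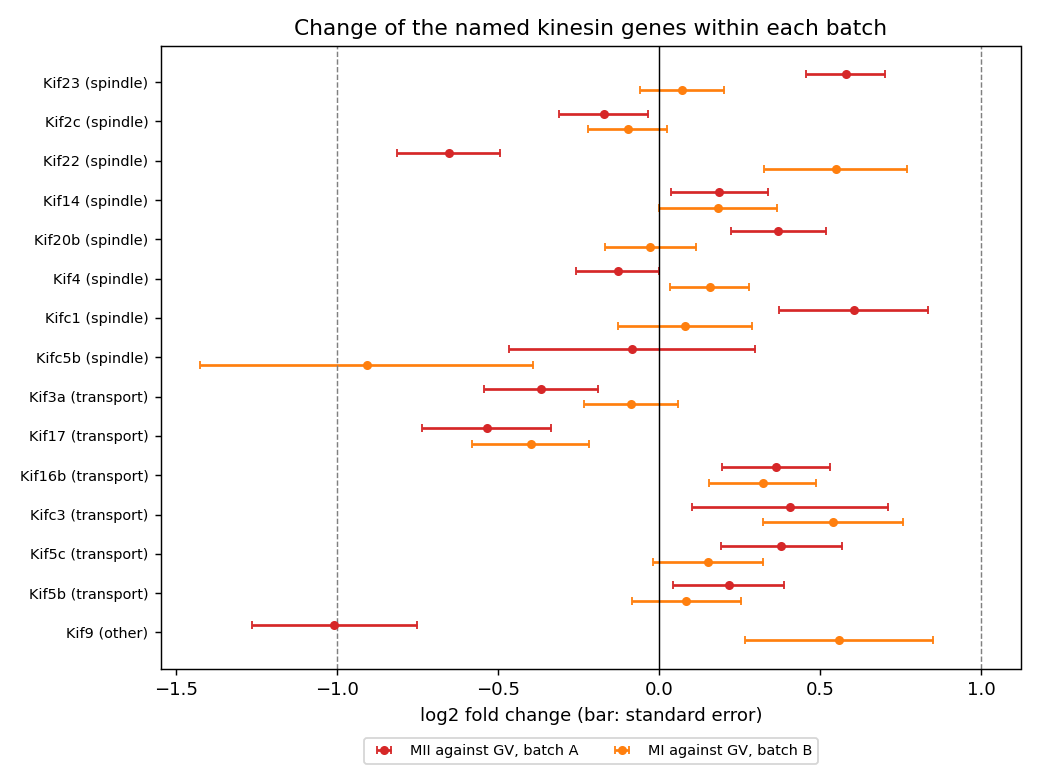
Log2 fold change of the 15 named motors from GV to MII in batch A and from GV to MI in batch B, from edgeR fits of all genes, with bars of 1 standard error and dashed lines at a fold change of 2. The batches are furthest apart for Kif22 and Kif9, and with spike-in scaling all points of batch A would lie below 0.

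The other abundant spindle motors stayed within the spread between stages. Kif2c (ENSMUSG00000028678.13, chromosome 4, 117159639 to 117182639, minus strand), the gene of a kinesin that takes microtubules apart at centromeres, had 106 to 179.9 TPM (median 145) in GV and 112 to 145 TPM (median 125) in MII oocytes of batch A, and 323 to 542 TPM (median 433) in GV and 269 to 610.2 TPM (median 379) in MI oocytes of batch B. Its stages overlapped in both batches, with a log2 change of -0.17 with a standard error of 0.138 (adjusted p = 0.408) in batch A and a log2 change of -0.10 with a standard error of 0.122 (adjusted p = 0.84) in batch B. Over protein-coding genes, its GV oocytes of batch A all lay below those of batch B, but over all genes they overlapped.

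Kif20b (ENSMUSG00000024795.11, chromosome 19, 34922361 to 34975745, plus strand) encodes a kinesin of the midzone and midbody. It had 110.2 to 149.6 TPM (median 137) at GV and 149 to 214 TPM (median 178) at MII, where the highest GV oocyte lay just above the lowest MII oocyte, and a log2 change of 0.37 with a standard error of 0.148 (adjusted p = 0.0859). At GV and MI of batch B it had 178 to 314 TPM (median 253) and 135 to 347 TPM (median 239), overlapping, with a log2 change of -0.03 with a standard error of 0.142 (adjusted p = 0.972). Kif4 (ENSMUSG00000034311.3, chromosome X, 100625737 to 100727214, plus strand), the gene of a chromokinesin that sets the length of midzone microtubules with Prc1, had close medians at both stages of each batch. Its ranges were 113 to 154 TPM (median 126), 92.3 to 149.6 TPM (median 119.7), 126 to 202 TPM (median 166) and 135 to 256 TPM (median 171) for GV and MII of batch A and GV and MI of batch B. Stages overlapped, with a log2 change of -0.13 with a standard error of 0.129 (adjusted p = 0.514) at MII (-0.0852 without MII oocyte 1) and a log2 change of 0.16 with a standard error of 0.123 (adjusted p = 0.689) at MI. A pseudogene, Kif4-ps, held 119 expected counts over all 37 oocytes, while Kif4 held 80833.

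Kif14 (ENSMUSG00000041498.13, chromosome 1, 136466343 to 136531511, plus strand) encodes a kinesin needed for cytokinesis. Its stages overlapped, with 43.9 to 98.6 TPM (median 63.1) at GV and 62.5 to 101 TPM (median 78.9) at MII in batch A and 82.3 to 386 TPM (median 264) at GV and 124 to 447 TPM (median 295) at MI in batch B. The fits gave a log2 change of 0.19 with a standard error of 0.150 (adjusted p = 0.407) in batch A and a log2 change of 0.18 with a standard error of 0.184 (adjusted p = 0.783) in batch B. At the same stage and on this scale, all but 1 of the 10 GV oocytes of batch B lay above all 6 of batch A.

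Kifc1 (ENSMUSG00000079553.11, chromosome 17, 33875659 to 33890661, minus strand) and Kifc5b (ENSMUSG00000024301.9, chromosome 17, 26917091 to 26932583, plus strand) are related copies of a minus-end directed motor that crosslinks and focuses spindle microtubules. Of the 2208 stretches of 150 bases, the read length, in the main Kifc1 transcript, 10.4% were found unaltered in a Kifc5b transcript, and reads from these could have been divided between both genes. Kifc1 had 15.0 to 33.8 TPM (median 22.6) at GV and 22.1 to 50.2 TPM (median 34.6) at MII of batch A, with overlap, and 19.4 to 59.3 TPM (median 35.3) at GV and 20.6 to 82.7 TPM (median 35.1) at MI of batch B. Its values were a log2 change of 0.60 with a standard error of 0.231 (adjusted p = 0.0743) and a log2 change of 0.08 with a standard error of 0.207 (adjusted p = 0.941). With DESeq2 the value in batch A, 0.61, passed the adjusted p (0.0429). Kifc5b was far lower in level, with 1.07 to 3.23 TPM (median 1.82), 0.937 to 2.99 TPM (median 1.76), 0.329 to 4.89 TPM (median 1.31) and 0 to 2.68 TPM (median 0.681) in the same order. Its changes were a log2 change of -0.09 with a standard error of 0.382 (adjusted p = 0.899), or -0.25 without MII oocyte 1, and a log2 change of -0.91 with a standard error of 0.516 (adjusted p = 0.538), and both copies are uncertain to the extent of their shared sequence.

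Of the remaining 7 spindle motors, Kif20a, Kif18a, Kif2a and Kif11 had medians from 29.9 to 89.9 TPM in GV oocytes of batch A. Kif11, the gene of the bipolar kinesin that pushes spindle poles apart, had 25.5 to 43.0 TPM (median 29.9) at GV and a narrow 39.9 to 45.1 TPM (median 40.6) at MII. Kif15, a motor that can back up Kif11, and Kif18b had medians of 3.91 and 4.90 TPM. Kif2b was at 0 in 36 of the 37 oocytes, with 1 count in the other, within the 3 counts that a count of 0 allows. Kif2b was not tested, and none of the other 6 passed the adjusted p in either batch by edgeR's test. Kif20a overlaps Cdc23 on the other strand over 2327 bases, and its ratio of HTSeq to RSEM counts in batch A was 1.01, against 2.14 for Kif22.

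Among transport motors, Kif17 had the highest median in batch A and Kif3a in batch B. Kif17 (ENSMUSG00000028758.12, chromosome 4, 138250435 to 138301967, plus strand) encodes a motor that moves receptor vesicles in neurons and also acts in cilia. It had 146 to 305 TPM (median 254) in GV and 119 to 189.5 TPM (median 167) in MII oocytes of batch A, with overlap, and 63.0 to 208 TPM (median 109) in GV and 38.3 to 153 TPM (median 73.8) in MI oocytes of batch B. Neither change passed the test, with a log2 change of -0.54 with a standard error of 0.199 (adjusted p = 0.0662) and a log2 change of -0.40 with a standard error of 0.182 (adjusted p = 0.401). Kif17 was among the 3788 genes called lower at MII with spike-in scaling (-1.23, adjusted p = 0.000282), 0.51 log2 units below the median of all genes. It shares 10898 bases on the same strand with Sh2d5. Its GV median was higher in batch A than in batch B.

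Kif16b (ENSMUSG00000038844.10, chromosome 2, 142617474 to 142901531, minus strand) encodes a motor of early endosomes. Its levels were 20.3 to 36.3 TPM (median 25.7) at GV and 25.3 to 50.0 TPM (median 36.6) at MII of batch A, and 38.6 to 97.4 TPM (median 72.5) at GV and 58.8 to 195 TPM (median 82.9) at MI of batch B. Both pairs overlapped, with a log2 change of 0.36 with a standard error of 0.167 (adjusted p = 0.134) and a log2 change of 0.32 with a standard error of 0.166 (adjusted p = 0.482). Kifc3 (ENSMUSG00000031788.14, chromosome 8, 95099828 to 95202812, minus strand), whose protein moves towards microtubule minus ends and serves cell junctions and the Golgi, was among the most variable. It had 19.6 to 82.5 TPM (median 52.3), 39.8 to 118 TPM (median 60.9), 25.0 to 63.9 TPM (median 48.4) and 25.9 to 163 TPM (median 69.3) in the same order, all overlapping. Its changes were a log2 change of 0.41 with a standard error of 0.305 (adjusted p = 0.372) and a log2 change of 0.54 with a standard error of 0.217 (adjusted p = 0.318).

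The heavy chains of conventional kinesin, which carry mitochondria, vesicles and messenger RNAs, were present at lower levels. Kif5b (ENSMUSG00000006740.14, chromosome 18, 6201002 to 6242174, minus strand), the form made in most tissues, had 12.0 to 20.7 TPM (median 16.8) at GV and 14.4 to 23.6 TPM (median 21.2) at MII of batch A, and 19.0 to 65.1 TPM (median 46.9) at GV and 25.4 to 80.6 TPM (median 48.3) at MI of batch B. Kif5c (ENSMUSG00000026764.15, chromosome 2, 49619298 to 49774778, plus strand), better known from neurons, was at a level close to it, with 9.17 to 23.3 TPM (median 14.7), 15.5 to 24.0 TPM (median 20.3), 21.9 to 74.1 TPM (median 49.8) and 32.3 to 76.4 TPM (median 51.4). Stages overlapped for both genes in both batches. The changes of Kif5b were a log2 change of 0.22 with a standard error of 0.172 (adjusted p = 0.404) and a log2 change of 0.08 with a standard error of 0.169 (adjusted p = 0.912), and those of Kif5c a log2 change of 0.38 with a standard error of 0.187 (adjusted p = 0.164) and a log2 change of 0.15 with a standard error of 0.171 (adjusted p = 0.813). The remaining heavy chain gene, Kif5a, was at 0 in 32 of the 37 oocytes. Their light chain gene Klc1 had a median of 25.2 TPM in GV oocytes of batch A.

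Kif3a (ENSMUSG00000018395.19, chromosome 11, 53567379 to 53601967, plus strand) encodes a subunit of kinesin-2, the motor that carries cargo to the tip of cilia. As a gene it had 39.5 to 105 TPM (median 60.8) at GV and 42.4 to 71.3 TPM (median 58.2) at MII in batch A, and 98.5 to 234 TPM (median 158) at GV and 91.2 to 229 TPM (median 152) at MI in batch B. Its stages overlapped, with a log2 change of -0.37 with a standard error of 0.177 (adjusted p = 0.154) in batch A and a log2 change of -0.09 with a standard error of 0.147 (adjusted p = 0.891) in batch B. On HTSeq counts the value in batch A was -0.0555 (adjusted p = 0.896). Kif3a was among the 3788 genes called lower at MII with spike-in scaling (-1.09, adjusted p = 0.00159), at -0.38 log2 units relative to the median of all genes. The subunits that pair with it were lower in level, Kif3b with a median of 4.27 TPM and Kif3c with 0.897 TPM in GV oocytes of batch A, and so was Kifap3, the gene of the accessory subunit, with 1.33 TPM.

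At the level of transcripts, 57 transcripts of 30 motors were tested in batch A, and 1 was called, Kif3a-203, against 5.57% of all 22461 transcripts tested. By adjusted p alone, Kif23-201 and Kif23-208 were higher and Kif22-201 and Kif3a-203 lower, 4 of 57, against 9.3%. In batch B, edgeR called 0 of 67 motor transcripts, with 5 at an unadjusted p under 0.05, and DESeq2 called 0, with 7 at an unadjusted p under 0.05. Of all 22717 transcripts tested there, 0% were called, and 1615 had an unadjusted p under 0.05 with edgeR.

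Kif3a-203, with 3161 bases and a 3′-UTR of 908, ends at base 53601967 of chromosome 11, and Kif3a-201, with 2290 bases and a 3′-UTR of 46, ends at base 53601105. Kif3a-203 had 244 to 410.2 counts (median 336) in GV and 94.5 to 179 counts (median 132) in MII oocytes of batch A, without correction for depth. It changed by a log2 change of -1.18 with a standard error of 0.185 (adjusted p = 0.00174), while the gene as a whole was not called. As a share of the expected counts of Kif3a, it held 43.6 to 88.9% (median 78.0) at GV and 29.3 to 50.2% (median 41.0) at MII, where 5 of 6 GV oocytes lay above all MII oocytes and GV oocyte 2 lay among them. The share of Kif3a-201 was 1.26 to 30.8% (median 7.07) at GV and 24.1 to 50.8% (median 33.3) at MII, again with GV oocyte 2 alone among the MII oocytes, and its counts did not pass the test, with a log2 change of 1.15 with a standard error of 0.701 (adjusted p = 0.355). In batch B, Kif3a-203 held 15.9 to 68.6% (median 30.1) at GV and 13.9 to 56.6% (median 22.0) at MI, with a log2 change of -0.54 with a standard error of 0.244 (adjusted p = 0.648). By median, the GV oocytes of batch B were thus closer to the MII than to the GV oocytes of batch A in this share. GV oocytes 5 (68.6%) and 9 (63.8%) of batch B were closer to the GV median of batch A. The medians of this share at GV were further apart between the batches than those of GV and MII within batch A.

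**Figure D3:**
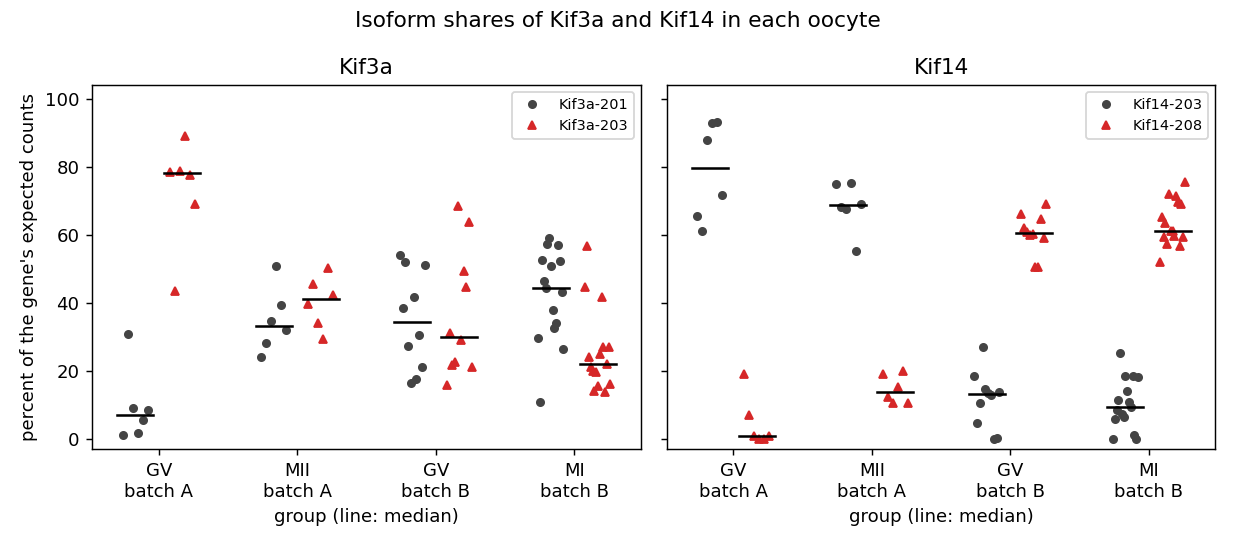
Share of the expected counts of Kif3a (left) and Kif14 (right) held by 2 transcripts of each gene, in percent, with 1 point per oocyte and a line at the group median. Kif3a-203 has a median of 78.0% at GV and 41.0% at MII of batch A, and Kif14-208 holds most of the counts of Kif14 in batch B but not in batch A.

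For the other motors that moved, 1 transcript carried most counts. Kif22-201 held 97.7 to 99.5% (median 99.3) of the counts of its gene at GV and at least 98.8% (median 99.2) at MII, and changed by a log2 change of -0.67 with a standard error of 0.160 (adjusted p = 0.0197). Kif23-201 held 64.7 to 72.7% (median 69.9) at GV and 68.1 to 72.9% (median 69.8) at MII, an even share, and changed by a log2 change of 0.58 with a standard error of 0.121 (adjusted p = 0.00981). The share of this transcript in the counts of Kif23 was thus close to the same at both stages. For Kif9, Kif9-201 held 59.2 to 81.5% (median 70.5) at GV and 59.8 to 100% (median 65.8) at MII, and its change, a log2 change of -1.04 with a standard error of 0.323 (adjusted p = 0.0613), missed the adjusted p with edgeR, while DESeq2 called it.

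For several motors, isoform shares differed between the batches at the same stage. Kif14-208, whose annotated biotype is nonsense-mediated decay, held 0 to 19.0% (median 0.859) of the counts of Kif14 in GV oocytes of batch A and 50.4 to 69.1% (median 60.4) in those of batch B, without overlap, and 10.4 to 20.1% (median 13.8) and 51.9 to 75.4% (median 61.1) at MII and MI. The protein-coding Kif14-203 held 61.2 to 93.2% (median 79.6) in GV oocytes of batch A and 0 to 27.0% (median 13.2) in those of batch B. All transcripts of Kif14 without a protein-coding annotation together held 5.87 to 25.9% (median 6.94) and 67.3 to 90.3% (median 78.8). Kif18a transcripts without such an annotation went from 0.324 to 2.21% (median 1.11) to 1.21 to 55.3% (median 34.4), with overlap. Those of Kif23 went the other way, from 14.0 to 22.0% (median 20.4) to 7.84 to 17.3% (median 11.3), also with overlap. Kif23-204, which ends before the stop codon of Kif23-201, went from 7.07 to 21.3% (median 9.32) to 24.3 to 52.9% (median 43.6). The TPM of Kif14 and Kif18a count their transcripts without a protein-coding annotation too, so the higher level of both in batch B does not measure coding RNA alone. Within batch A, Kif20b transcripts without such an annotation held 0.172 to 14.1% (median 1.12) at GV and 1.02 to 31.4% (median 17.1) at MII, with overlap. The TPM of Kif20b counts these as well.

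At the GV stage, the levels of 4 of 32 motors did not overlap between the batches, Kif2a, Kif2c, Kif20b and Kif16b, all higher in batch B, and 10.9% of all protein-coding genes tested did not overlap either. The ratio of the GV medians of batch B to batch A was 2.99 for Kif2c, 2.82 for Kif16b, 2.39 for Kif2a and 1.85 for Kif20b. Kif14 had the largest such ratio among the 15 named motors, 4.18, with 1 oocyte in overlap. These ratios shrank when levels were scaled over all genes, to 2.14 for Kif2c, 2.15 for Kif16b, 1.88 for Kif2a, 1.38 for Kif20b and 2.91 for Kif14, and the GV oocytes of all 5 overlapped. On that scale 1 of 32 motors did not overlap, Kif17, which was lower in batch B, against 16.5% of the protein-coding genes tested. Counts per oocyte overlapped between the GV oocytes of the batches. Genes detected did not, with 20126 to 21047 in batch A and 15716 to 18971 in batch B. The share of counts on protein-coding genes did not either, with 59.9 to 71.4% in batch A and 35.3 to 57.8% in batch B. What part these have in the ratios was not tested.

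Motors outside both lists were low in level, with Kif24, the gene of a centriolar kinesin, the highest of the 12 at a median of 16.3 TPM in GV oocytes of batch A. In none of the fits did these 10 motors pass the filter: Kif1a, Kif2b, Kif5a, Kif6, Kif7, Kif12, Kif19a, Kif26a, Kif28 and Kifc2. Over all 37 oocytes they held from 0 expected counts (Kif12) to 129 (Kif26a). Kif1a and Kif5a are known from neurons and Kif7 from hedgehog signalling at cilia, with counts in 9, 5 and 4 of the 37 oocytes.

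The 3′ ends of the main transcripts were read because priming starts there and because the dormant messenger RNAs of oocytes are known to be activated through elements near the poly(A) signal. Over the last 100 bases of the most counted protein-coding transcript, AATAAA or ATTAAA was present in 30 of the 35 motors with such a transcript (85.7%) and in 79.6% of 13817 protein-coding genes. TTTTAT or TTTTAAT, forms of the cytoplasmic polyadenylation element, was present in 10 of 35 (28.6%) and in 19.0%. Only the transcript strand was searched, and a match describes these letters and not a working site. Of the motors that moved, Kif23-201 and Kif9-201 held AATAAA but neither U-rich motif, and Kif22-201 held TTTTAT but neither signal. Kif3a-203 held none of the 4 motifs at its distal end, whereas Kif3a-201 held AATAAA and ATTAAA at its proximal end. The sites follow from GENCODE M21 on GRCm38, in the direction of the transcript, with the motif in capitals, for Kif23-201 (chr9:61917285-61917314, minus strand), Kif9-201 (chr9:110524202-110524231, plus strand), Kif3a-201 (chr11:53601071-53601100, plus strand) and Kif22-201 (chr7:127027731-127027760, minus strand), the last of them in the 3′-UTR.
Kif23-201: caaaacaactgaAATAAAaaggcactaaga
Kif9-201: actgattggtttAATAAAgatctgatggcc
Kif3a-201: taaagttaaaatAATAAAaagagtgctgtc
Kif22-201: acgtgttgtgtaaatacagtTTTTATtcca

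Partners of the kinesins were described from a list of 42 symbols, of which 41 were found and 36 tested in batch A. None of the 36 was called by edgeR (15 had an unadjusted p under 0.05) or by DESeq2 (18). DESeq2 called 828 of all genes lower and 273 higher. With edgeR 6.32% of all genes were called lower and 2.15% higher, and 4441 of 12929 had an unadjusted p under 0.05. By adjusted p alone 4 partners were higher at MII, Rhot1, Cenpe, Racgap1 and Aurkc, and 5 were lower, Kif1bp, Tacc3, Haus1, Haus3 and Haus8, near the shares of all genes given above. Cenpe encodes a kinesin motor of the kinetochore whose symbol lies outside the rule, so it is not among the 42. It had 92.2 to 129.8 TPM (median 113) at GV and 133 to 186 TPM (median 164) at MII, with a log2 change of 0.58 with a standard error of 0.143 (adjusted p = 0.0105). Haus1, Haus3 and Haus8 encode subunits of augmin, which seeds new microtubules on those of the spindle. Kif1bp (ENSMUSG00000036955.16, chromosome 10, 62538626 to 62578457, minus strand) had 35.1 to 50.7 TPM (median 45.8) at GV and 18.5 to 29.5 TPM (median 24.7) at MII, without overlap, and a log2 change of -0.82 with a standard error of 0.171 (adjusted p = 0.00365). In batch B it had 21.6 to 39.1 TPM (median 28.1) at GV and 17.1 to 53.0 TPM (median 26.9) at MI, with overlap and a log2 change of -0.15 with a standard error of 0.196 (adjusted p = 0.851). Kif1bp was among the 3788 genes called lower at MII with spike-in scaling, 0.86 log2 units below the median of all genes.

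By median TPM over all 37 oocytes, the most abundant partners were Birc5 and Cdca8 of the chromosomal passenger complex, Tacc3, and Prc1, which bundles midzone microtubules with Kif4. Birc5 had 1321 to 1913 TPM (median 1513) at GV and 1101 to 1641 TPM (median 1300.5) at MII, with a log2 change of -0.26 with a standard error of 0.165 (adjusted p = 0.276). Tacc3, which strengthens spindle fibres, had 755 to 1268 TPM (median 1152) at GV and 592 to 744 TPM (median 682) at MII, with a log2 change of -0.62 with a standard error of 0.135 (adjusted p = 0.0047). Prc1 had 443 to 603 TPM (median 518) and 540.1 to 783 TPM (median 623), overlapping, with a log2 change of 0.35 with a standard error of 0.140 (adjusted p = 0.0878). In the difference of changes 1 of 37 partners tested was called, against 4.03% of all genes. This was Aurkc, the gene of the aurora kinase that oocytes use at the chromosomes. It had 509.9 to 758 TPM (median 586) at GV, 752 to 1034 TPM (median 903) at MII, and 141 to 393 TPM (median 236) and 83.8 to 249.5 TPM (median 148) at GV and MI of batch B, with a difference of 1.24 (standard error 0.260, adjusted p = 0.00268). In batch B 0 of 37 partners were called by edgeR, with 2 at an unadjusted p under 0.05, and 0 by DESeq2, with 3. Of all 12419 genes tested there, 1371 had an unadjusted p under 0.05 with edgeR.

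Dynein and dynactin, the motor of the opposite direction and its activator, were listed with 31 genes, of which 30 were tested in batch A. Of these, 3 were called lower at MII, Dynll1, Dynlrb1 and Actr1b, and 0 higher, against the same 6.32% and 2.15% of all genes. DESeq2 called 4 in all, beside 828 of all genes called lower and 273 higher. By edgeR's adjusted p alone 5 were lower, with Dynlt1b and Dync1i2 added. By that measure 1 was higher, Nde1, with a log2 change of 0.71 with a standard error of 0.233 (adjusted p = 0.0393). Dynll1, a light chain that also serves proteins other than dynein, had 283 to 642 TPM (median 443) at GV and 88.3 to 131 TPM (median 106) at MII. It changed by a log2 change of -1.93 with a standard error of 0.253 (adjusted p = 9.18e-05) and was also called in the difference of changes, with -1.23 (standard error 0.322, adjusted p = 0.0156), though on HTSeq counts a value about as large, -1.19, missed the adjusted p (0.0518). Dynlrb1 had 243 to 408 TPM (median 308) at GV and 104 to 159 TPM (median 132) at MII, and a log2 change of -1.27 with a standard error of 0.202 (adjusted p = 0.000497). Actr1b, a subunit of the dynactin filament, had 2.75 to 14.2 TPM (median 8.87) and 1.66 to 9.75 TPM (median 6.43), and its call, a log2 change of -1.04 with a standard error of 0.343 (adjusted p = 0.0411), was lost without MII oocyte 1, where the value was about as large (log2 change -1.0002, adjusted p = 0.0782), and on HTSeq counts (log2 change -0.75, adjusted p = 0.134). The heavy chain gene Dync1h1 was low in level, with a median of 4.30 TPM at GV and a log2 change of -0.31 with a standard error of 0.303 (adjusted p = 0.508).

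The dynein genes of highest level over all oocytes were Ndel1, Dynlt1b and Dync1i2. Ndel1, a regulator of dynein, had 161 to 245 TPM (median 231) at GV and 210.1 to 324 TPM (median 266) at MII and a log2 change of 0.09 with a standard error of 0.128 (adjusted p = 0.653). Dynlt1b had 204 to 383 TPM (median 271) and 109 to 281 TPM (median 151) and a log2 change of -0.71 with a standard error of 0.243 (adjusted p = 0.0463). Dync1i2, an intermediate chain, had 176 to 219 TPM (median 198) and 129 to 169.8 TPM (median 152) and a log2 change of -0.41 with a standard error of 0.125 (adjusted p = 0.0305). In batch B 0 of 30 were called by edgeR and 0 by DESeq2, each with 4 at an unadjusted p under 0.05, beside 1371 of all 12419 genes with edgeR.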

How the data were processed

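The authors trimmed reads with Trim Galore (version 0.6.4) and deposited expected counts of genes and of transcripts from RSEM (1.3.1) on mm10 with GENCODE VM20 and ERCC sequences. The deposited HTSeq counts came from STAR (2.7.6a) and HTSeq (0.12.4), with strandedness not given in the sources used here. Versions are from the submitters' processing notes.

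Members and gene lists were chosen with earlier results of these data known. Expected counts were rounded, and the 92 spike-ins were left out of library sizes. Genes passing filterByExpr were tested with edgeR 4.0.16 (glmQLFit, TMM) in R 4.3.3, GV against MII in batch A, GV against MI in batch B, and their difference over 37 oocytes. Standard errors are the log2 fold change divided by the square root of F. TPM were computed from expected counts per transcript divided by annotated length and scaled to the same sum over protein-coding genes. Names, lengths and sequences were from GENCODE M21 (GRCm38), matched on identifiers without version (54723 of 54752 genes, 138789 of 138835 transcripts). The fits were tested on simulated data. Counts of same-group oocytes differed beyond sampling noise in every pair.

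Named motors were those called in any comparison, the 6 spindle and 6 transport motors with the highest median TPM, those with a called transcript, and Kifc1 and Kifc5b. Partners and dynein genes were named when called or among the 3 of highest median TPM in their list. Others named with values (Kif11, Kif24, Racgap1, Cenpe, Nde1, Klc1, Kifap3, Dync1h1, Cdca8, Kif18a, Kif2a and further minor motors) were chosen after their values were seen. Alternatives were other filters, DESeq2 1.42.0, RLE and spike-in scaling, HTSeq counts, the replicate number as a block, single oocytes left out and a model of all oocytes. A count of 0 allows up to 3 counts, for counting error only, since reads carried no molecular identifiers.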

Additional observations from a re-analysis of the deposited data

Results flagged for a closer look

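The change to MII in batch A differed from the change to MI in batch B, by the test of the difference on the log2 scale, for Kif22 (-1.13), Kif9 (-1.49), the aurora kinase gene Aurkc (1.24) and the dynein light chain gene Dynll1 (-1.23). Kif22 and Kif9 were not called without MII oocyte 1 (-1.09 and -1.35) or on HTSeq counts (-1.22 and -1.39), where values of similar size missed the adjusted p. Kif22 was also not called without MI oocyte 15 (-0.97), and Dynll1 not on HTSeq counts (-1.19), while Aurkc was called in all 3 settings. Batch and place of maturation cannot be told apart from stage in these differences.

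A single oocyte lay far from the others of its group in 6 of 69 combinations of a measure and a group, and chance alone marks about 1 in 20. The rule used reaches groups of at most 10, so the 15 MI oocytes were not examined, MI oocyte 15 included. GV oocyte 7 of batch B was the highest of its group for Kif22 (425 TPM) and Kif17 (208 TPM) and the lowest for the summed level of the motors (2433 TPM). It also had the lowest share of counts on protein-coding genes of all oocytes, 35.3%, and the part of this was not tested. MII oocyte 1 of batch A had 29518 genes detected. GV oocyte 2 of batch A had 30.8% of its Kif3a counts on Kif3a-201, and GV oocyte 1 had 19.0% of its Kif14 counts on Kif14-208.

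Pseudogenes of the family, which are not protein-coding and entered no comparison of motors, held more counts over the 37 oocytes than the 3 that a count of 0 allows: 88.7 for Kifc5c-ps, 119 for Kif4-ps and 88.7 for Kif22-ps. Of the stretches of 150 bases in the main transcripts of Kifc1, Kif4 and Kif22, 0 were found unaltered in these pseudogenes.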

How the results depend on the processing

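The 15 named motors and Kif1bp had 144 values under alternatives in each batch, of which 8 in batch A and 5 in batch B had the opposite sign of the reported one. In batch A all 8 were reported as positive and turned negative with spike-in scaling: Kif23 (-0.17), Kif14 (-0.59), Kif20b (-0.37), Kif16b (-0.38), Kifc3 (-0.32), Kif5c (-0.39), Kif5b (-0.54) and Kifc1 (-0.14), as did the transcript Kif23-201 (-0.15). In batch B the 5 were near 0: Kif20b (0.0104) and Kif3a (0.0106) on HTSeq counts, Kif3a (0.0309) and Kif5b (-0.0486) on HTSeq counts without MI oocytes 4, 8 and 9, and Kif23 (-0.0380) with the replicate block.

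The 1 motor called in batch A, Kif9, became 0 with DESeq2, RLE size factors, HTSeq counts, the model of all 37 oocytes or without MII oocyte 1. With DESeq2 (-0.995, adjusted p = 0.00156) and RLE size factors (-0.990, adjusted p = 0.0139) it missed only the fold threshold. Spike-in scaling called 4 (Kif9, Kif22, Kif17 and Kif3a), and adjusted p alone 3. The 2 motors of the difference of changes became 4 with no filter (Kif1a and Kif6, with 46 and 19 counts over all oocytes, joined), 1 without MI oocyte 15 (Kif9), and 0 without MII oocyte 1, on HTSeq counts, and on HTSeq counts without MI oocytes 4, 8 and 9. The 1 motor transcript called in batch A became 2 with DESeq2 (Kif9-201 joined), 5 with spike-in scaling and 4 by adjusted p alone. The 3 dynein calls became 18 dynein and partner calls with spike-in scaling, which also called 3788 of all genes lower and 131 higher. The counts of motors called in batch B remained 0 under all alternatives run.

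Over all genes of batch A, 278 higher calls became 895 with no filter, 420 with a mean of at least 10 counts, 131 with spike-in scaling, 101 on HTSeq counts and 163 without MII oocyte 1, and 817 lower calls became 3788 with spike-in scaling and 426 in the model of all oocytes. In batch B 15 calls became 40 with no filter, 121 with DESeq2, 107 in the model of all oocytes, 0 on HTSeq counts with or without MI oocytes 4, 8 and 9, and 0 with the replicate block. The 608 calls of the difference became 1500 with no filter, 357 without MII oocyte 1, 247 on HTSeq counts 281 on HTSeq counts without MI oocytes 4, 8 and 9, and 652 without MI oocyte 15. Transcript calls went from 1252 to 4321 with spike-in scaling and 532 with the replicate block in batch A, and from 0 to 2 with no filter and 103 with DESeq2 in batch B. The cause of these shifts was not tested.

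The summed level of the motors over all genes in place of protein-coding ones, with the order of the stages in batch A reversed, was 1163, 1065, 1259 and 1396 TPM at the median of GV and MII of batch A and GV and MI of batch B. On HTSeq counts the spindle share was 74.9% at GV and 78.0% at MII of batch A.

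Sample numbers are shared between stages, and the labels do not say whether they mark pairs, so the main fits left them out. Same-numbered oocytes had correlations of their deviations from -0.32 to 0.34 over 6 numbers in batch A and from -0.15 to 0.11 over 10 in batch B. Of these, 1 and 0 oocytes correlated best with their own number. So few numbers cannot settle whether same-numbered oocytes shared an animal. With the replicate block 1 motor was called in batch A and 0 in batch B, and 1 motor transcript in batch A. Fits without MI oocyte 15, without MI oocytes 4, 8 and 9, or with a mean of at least 10 counts in the difference of changes, adjusted p alone for it and for transcripts, levels without MII oocyte 1, and GV oocytes of both batches compared over all genes were chosen after seeing the data.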
